A study of Sus scrofa with 80 samples.

Results

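SNAP25, SYT1, STMN2, NEFL, NEFM, FEZ1 and UCHL1 encode proteins of nerve terminals, axons and hormone-secreting cells, and their mRNA was followed here across 5 endocrine-related tissues of the pig. The genes were taken by their symbol in the annotation of the Porcine GeneChip. Of the 7 symbols, 6 were carried by at least 1 probeset, with 10 probesets in all out of 23999 used, and the gene ID of each of the 6 had the same symbol in RefSeq. The array has 6765 symbols in all that come from probesets with a single symbol. NEFM was not measured under that symbol. The genes had been picked because earlier results on these same arrays showed them high in the hypothalamus, so their levels across tissues are described without a test. Breed, sex and covariation were tested within a tissue, and the sex difference in gonads also against that in the other tissues. Genes of other neuronal lists, chosen with such earlier results known, were tested between hypothalamus and adenohypophysis.

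The arrays held mRNA of hypothalamus (HYPO), adenohypophysis (AHYP, the anterior lobe of the pituitary), thyroid gland (THYG), gonads (GONA) and backfat (FATB) from 16 pigs, 1 array for each pig and tissue, 80 arrays in all. The pigs were 4 Large White (LW, mean age 87 days), 4 Duroc (DU, 83 days), 4 Youli (YL, 80 days) and 4 Iberian (IB, 89 days), with 2 males and 2 females per breed except Youli, with 3 males and 1 female. Large White is a lean sire line, Duroc and Youli are maternal lines, Youli being a synthetic of several breeds, and Iberian is an unselected fat breed. The labels name no treatment, and the pigs, bought from several breeding companies, were kept together and fed alike. Animals are named by breed, sex and number (LWF06 is a Large White female), and the gonads comprised 9 testes and 7 ovaries.

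Neurons release transmitter when vesicle and membrane SNARE proteins zip together. SNAP25 is the SNARE of the plasma membrane that also serves hormone granules in endocrine cells, and SYT1 is the calcium sensor that triggers fusion. NEFL is the light neurofilament subunit, a filament protein of axons, and NEFM the medium one. STMN2 (SCG10) is a neuronal stathmin that binds tubulin and destabilizes microtubules in growing axons, and FEZ1 is an adaptor of kinesin transport in axon growth. UCHL1 (PGP9.5) is a ubiquitin hydrolase that is abundant in neurons and neuroendocrine cells and is known also from spermatogonia and oocytes.

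Some arrays stood apart and bear on what follows. The values are log2 intensities after GCRMA normalization, on which probesets without signal lie near 2 to 3, and a gene was called above background in a tissue where its median log2 value was at least 4. By that measure the share of probesets above background was 57.1% for hypothalamus, 56.9% for adenohypophysis, 56.4% for thyroid and also 56.4% for testis, 57.3% for ovary and 55.5% for backfat. The hypothalamus label held in the glial and neuronal markers (GFAP at least 13.64, GAD1 at least 9.27), while AVP, the vasopressin gene, ran from 1.84 in LWF06 and 1.86 in LWM04 to 14.01 in IBF25. In the adenohypophysis 11 of 11 hormone and pituitary factor genes were above background, and their summed level was 17.08 to 17.52 in log2. That sum was 15.58 in the thyroid of YLM20 and 12.48 in the thyroid of YLM19, against 5.56 to 8.56 in the other 14 thyroids, with growth hormone (GH1) at 14.70 and 11.04. The hypothalamus of YLM19 also held such mRNA, with a sum of 12.47 against 5.55 to 10.73 in the others. TG, the thyroglobulin gene, was at 13.81 to 14.63 in every thyroid. The ovary of IBF25 had the zona pellucida gene ZP3 at 2.22 and DPPA5 at 1.97, where the other 6 ovaries had 8.37 to 11.14 and 9.39 to 12.65. For 11 of 16 thyroid arrays the title conflicted with the breed and sex fields, and the title was followed.

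None of the 6 genes was above background in the hypothalamus alone. SYT1, STMN2, NEFL and FEZ1 were above background in hypothalamus and adenohypophysis only, a pattern held by 1.15% of all probesets (hypothalamus alone, 1.85%). SNAP25 was above background in the thyroid gland as well, and UCHL1 in every kind of sample but backfat. In the plot of all 80 arrays the genes share the top position in the hypothalamus and part company elsewhere.

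**Figure D1:**
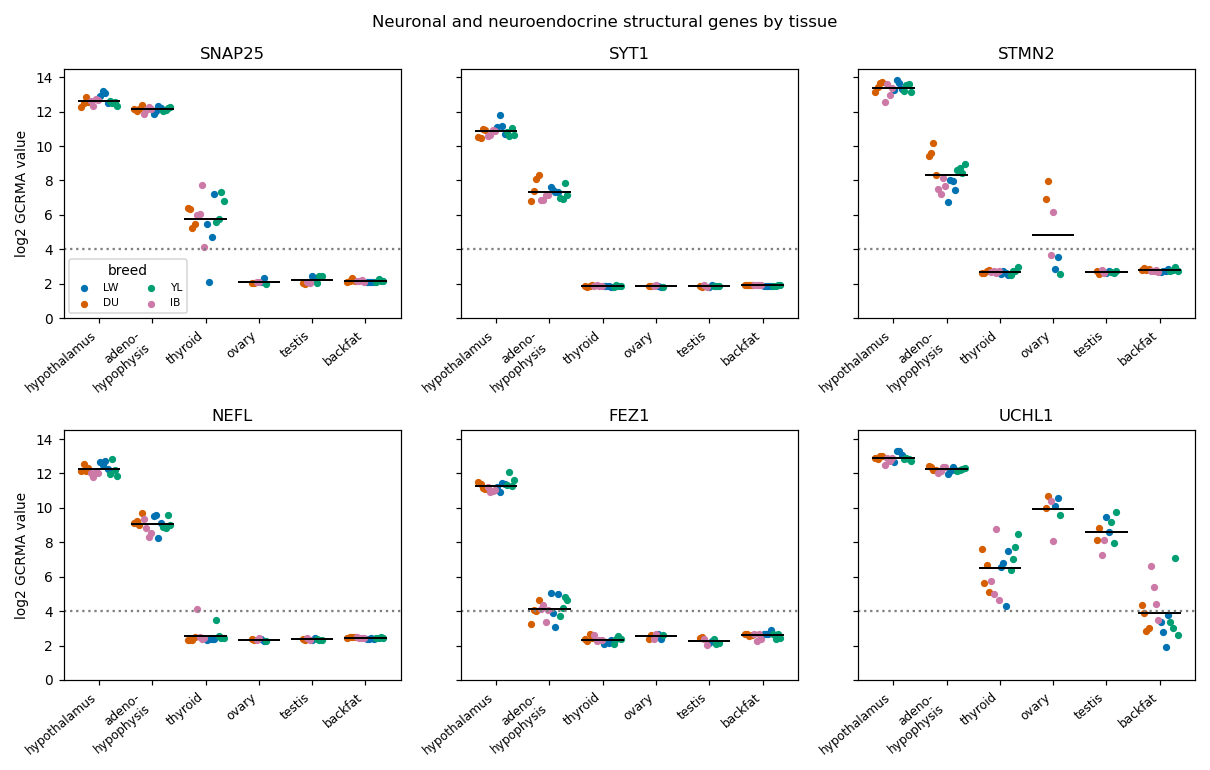
Log2 GCRMA value of the representative probeset of each gene (vertical axis) in each tissue (horizontal axis). Each point is 1 array, coloured by breed, black bars are means and the dotted line is the background level of 4. Outside hypothalamus and adenohypophysis SYT1, NEFL, STMN2 and FEZ1 lie below the background level except for STMN2 in 3 ovaries and NEFL in 1 thyroid, SNAP25 keeps an intermediate level in 15 of 16 thyroids, and UCHL1 is spread over thyroid, gonads and backfat.

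SNAP25 (gene ID 100620588) had 1 probeset. In the hypothalamus its log2 level ran from 12.24 (DUF13) through a median of 12.59 to 13.19 (LWF06), and in the adenohypophysis from 11.86 through 12.15 to 12.37. The mean difference between both tissues of the same animal was 0.51 ± 0.31 log2 (SD, n = 16), higher in the hypothalamus in 16 of 16 animals, although the ranges of the tissues overlapped. This vesicle-fusion gene was thus nearly as strong in the hormone-secreting gland as in the nervous tissue. In testes, ovaries and backfat it lay between 1.98 and 2.43, at the floor.

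SYT1 (gene ID 100513599), the calcium sensor, separated both tissues further. Its representative probeset (the one with the higher mean) ran from 10.47 through 10.84 to 11.83 in the hypothalamus and from 6.81 through 7.23 to 8.34 in the adenohypophysis, with no overlap and a mean difference of 3.55 ± 0.43 log2 (SD, n = 16). Every other array lay between 1.81 and 1.94. The second SYT1 probeset had medians of 8.90 and 4.20 in these tissues, a wider scatter (SD 1.07 and 1.13, n = 16) and 10 of 16 adenohypophyses at 4 or more.

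STMN2 (gene ID 100156768), the microtubule-destabilizing stathmin, was at 12.54 to 13.84 in the hypothalamus, with a median of 13.40. In the adenohypophysis it ran from 6.74 (LWF05) through 8.21 to 10.18 (DUM12), which put it 5.07 ± 0.93 log2 (SD, n = 16) below the hypothalamus of the same animals. The second probeset gave medians of 11.54 and 5.86 and a difference of 5.86 ± 1.38 log2. Both probesets were at the floor in thyroid, testis and backfat, where the representative one never passed 2.99.

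NEFL (gene ID 100521224), the light neurofilament, was at 11.81 to 12.87 (median 12.18) in the hypothalamus and at 8.26 to 9.69 (median 9.06) in the adenohypophysis. The difference was 3.20 ± 0.52 log2 (SD, n = 16), and the second probeset gave 3.18 ± 1.04. Outside both tissues it stayed at 2.29 to 2.55 with 2 exceptions in the thyroid, IBF22 at 4.15 and YLF21 at 3.51. The second probeset showed a like rise only in YLF21 (2.71), with IBF22 at 2.21 among the other thyroids.

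FEZ1 (gene ID 100526005), the transport adaptor, was nearest of the 6 to a gene of hypothalamus only, and its probesets disagreed on the adenohypophysis. The representative probeset ran from 10.92 through 11.27 to 12.07 in the hypothalamus and from 3.10 (LWM02) through 4.10 to 5.05 (LWF05) in the adenohypophysis, so that the median was just above the background level and 11 of 16 arrays reached it. Even so, the lowest adenohypophysis exceeded the highest backfat (2.88). The second probeset was at 8.85 to 10.07 in the hypothalamus and at no more than 2.13 in the adenohypophysis, not above the floor. With a background level of 5, or with the mean of both probesets, FEZ1 counted as hypothalamus only. The other values closest to the background level were those of STMN2 in the ovary (median 3.69) and UCHL1 in backfat (median 3.42), both just outside.

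UCHL1 (gene ID 396637), the ubiquitin hydrolase, was the widest. It ran from 12.47 through 12.89 to 13.30 in the hypothalamus and from 11.97 through 12.21 to 12.46 in the adenohypophysis, a difference of 0.67 ± 0.23 log2 (SD, n = 16) with 16 of 16 animals higher in the hypothalamus. Ovaries followed at 8.09 to 10.71 (median 10.13), then testes at 7.28 to 9.77 (median 8.57), thyroids at 4.27 to 8.75 (median 6.62) and backfat at 1.92 to 7.09 (median 3.42). Each of these 4 overlapped the next in the order, while the adenohypophysis stood clear of the ovaries. In these tissue pieces a smaller share of cells that carry a gene and less mRNA per cell cannot be told apart.

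Other mRNA of hypothalamic cells differed in whether it was present in the adenohypophysis arrays. Beside the counts that follow, 57.1% of all probesets were above background in the hypothalamus and 56.9% in the adenohypophysis. Of 14 hypothalamic neuropeptide genes 9 were above background in the hypothalamus and 2 in the adenohypophysis, namely POMC, which the gland itself makes, and CARTPT (mean 6.21 ± 1.26 log2, SD, n = 16). Of 15 neurofilament and cytoskeleton genes 13 were above background in the hypothalamus and 12 in the adenohypophysis, and of 13 other neuronal markers 13 and 8. MAP2 (11.46), ENO2 (11.47), GAP43 (8.54) and RTN1 (8.72) had high means in the adenohypophysis, MAP2 also in the thyroid (10.02). Others were below background in the adenohypophysis, such as GAD2 (mean 3.56), HPCAL1 (3.47) and VSNL1 (2.88). In the adenohypophysis the GABA-synthesis gene GAD1 was at 1.94 to 3.19 and MAG, a myelin gene, at 1.74 to 1.91, against at least 9.27 and 8.92 in the hypothalamus. OXT, the oxytocin gene, was at 1.55 to 1.74. Of 10 oligodendrocyte and myelin genes, 10 were above background in the hypothalamus and 2 in the adenohypophysis, where their summed level was 9.51 to 10.95 against 14.84 to 16.43. Of 9 astrocyte and pituicyte genes, 8 were above background in the hypothalamus and 5 in the adenohypophysis, the latter near the share of all probesets. GFAP, of astrocytes and of the glial pituicytes of the posterior lobe, was at 2.36 to 5.85 in the adenohypophysis, with a median of 3.20, below background. The paper states that the gland was separated from the posterior lobe. The source of GFAP mRNA in the higher arrays was not tested.

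Other genes of the same cell structures, which are not among the 7, were compared between hypothalamus and adenohypophysis with limma across all 80 arrays. The fit pools the spread of a gene over all tissues. Its standard errors and p can therefore be too small or too large for hypothalamus and adenohypophysis alone. Over all probesets 53% were called at an adjusted p under 0.05, 23.3% higher in the hypothalamus and 29.7% higher in the adenohypophysis, with a median difference of -0.01 log2. Of 136 symbols in 4 lists, 52 were measured, and 33 of these were higher in the hypothalamus, 10 higher in the adenohypophysis and 9 not called. The lists had been chosen with earlier results on these arrays known, so these counts and those by list are a description and no independent support. By list the genes differed in direction, as the plot of differences by list shows. Cytoskeleton and general neuronal genes lay on the hypothalamic side, secretory granule genes mostly on the pituitary side, and synaptic genes on both.

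**Figure D2:**
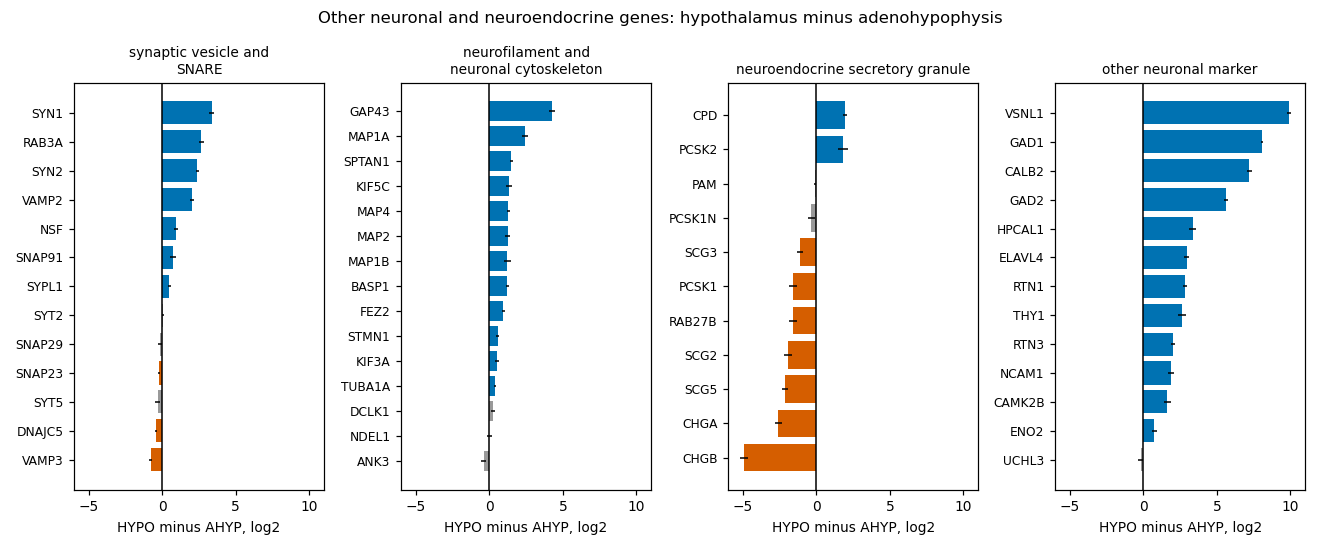
Hypothalamus minus adenohypophysis in log2 (horizontal axis) for the 52 measured genes of 4 lists. Error bars are the standard error of the limma fit, with the spread pooled over all tissues. Blue bars are called higher in the hypothalamus, orange bars higher in the adenohypophysis and grey bars are not called. Cytoskeletal and other neuronal genes have no orange bar, while CHGB, CHGA and SCG5 lead the orange bars of the granule list.

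Among 15 neurofilament and cytoskeleton genes 12 were higher in the hypothalamus and none in the adenohypophysis, with a median difference of 1.21 log2. GAP43, a growth cone protein, was higher by 4.28 ± 0.20 log2 (SE, n = 16 per tissue), the microtubule protein MAP1A by 2.43 ± 0.24 and the spectrin SPTAN1 by 1.50 ± 0.09. Among 13 other neuronal markers 12 were higher in the hypothalamus (median 2.84 log2), led by the calcium-binding proteins VSNL1 (9.89 ± 0.13) and CALB2 (7.19 ± 0.18) and by GAD1 (8.06 ± 0.08). These 3 were at the floor in the adenohypophysis (means 2.88, 1.91 and 2.05), so that the differences are set by that floor. They were near the floor in the remaining tissues as well, so the pooled standard errors understate their scatter in the hypothalamus. There the SD was 1.16 for CALB2 and 0.40 for both VSNL1 and GAD1. UCHL3, the paralog of UCHL1, was the one not called, at -0.20 ± 0.14 log2 with an adjusted p of 0.26 by limma.

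Of 13 synaptic vesicle and SNARE genes 7 were higher in the hypothalamus and 3 in the adenohypophysis (median 0.49 log2). SYN1, a synapsin that tethers synaptic vesicles, was higher in the hypothalamus by 3.35 ± 0.18 log2, the vesicle GTPase RAB3A by 2.67 ± 0.17 and SYN2 by 2.39 ± 0.11. The 3 higher in the adenohypophysis are broadly used membrane-fusion genes with small differences, namely VAMP3 (-0.80 ± 0.10), the chaperone DNAJC5 (-0.42 ± 0.10) and SNAP23 (-0.24 ± 0.08), the non-neuronal paralog of SNAP25. Of 11 granule genes 7 were higher in the adenohypophysis and 2 in the hypothalamus (median -1.59 log2). The granins CHGB and CHGA were lower in the hypothalamus by -4.93 ± 0.29 and -2.60 ± 0.23 log2 and the prohormone convertase chaperone SCG5 by -2.12 ± 0.21, while the carboxypeptidase CPD (1.94 ± 0.14) and the convertase PCSK2 (1.80 ± 0.33) were higher there.

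Genes whose pattern over the 80 arrays was most like each of the 6 were sought among 6759 other symbols by Pearson r, as a description over arrays that share animals and tissues. For SYT1 and NEFL the same 3 genes came out, namely RTN1, CHRNB2 and GRK4, with r between 0.985 and 0.992. RTN1, a reticulon of neurons and neuroendocrine cells, had means of 11.56, 8.72 and 2.83 in hypothalamus, adenohypophysis and thyroid. STMN2 was nearest to CALCR, the calcitonin receptor (r = 0.971), which was also above background in the ovary (mean 6.26), then to RTN1 (0.968) and GAP43 (0.957). SNAP25 was nearest to the granule gene SCG3 (0.977), then to FBXL16 (0.970) and DNAJC6 (0.968). FEZ1 stood apart, since its nearest genes were the oligodendrocyte gene OPALIN (0.988) and the astrocyte genes SLC1A2 and GFAP (both 0.986). UCHL1 had the loosest match, with LOC100523107 (0.933), CDK5 (0.924) and PRKRA (0.921).

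Within the hypothalamus the genes did not all vary together among animals. Of 15 pairs 11 had a positive r, with a median of 0.38, and 2 pairs passed a permutation test after adjustment over the 15 (3 at an unadjusted p under 0.05). SNAP25 and SYT1, which act in the same fusion step, had r = 0.858 (permutation p = 3e-05, adjusted 0.00045, n = 16) and rho = 0.785 (p = 0.00054, adjusted 0.00645). Without LWF06 and LWM02, the animals farthest from the SNAP25 median, r was 0.745 (adjusted permutation p = 0.0339), and after removing breed and sex it was 0.787. STMN2 and UCHL1 had r = 0.791 (permutation p = 0.00019, adjusted 0.00143, n = 16) and rho = 0.762 (p = 0.00086, adjusted 0.00645), but without IBF22 and LWF06 r was 0.595 with an adjusted permutation p of 0.170, so that this relation rests in part on those animals.

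**Figure D3:**
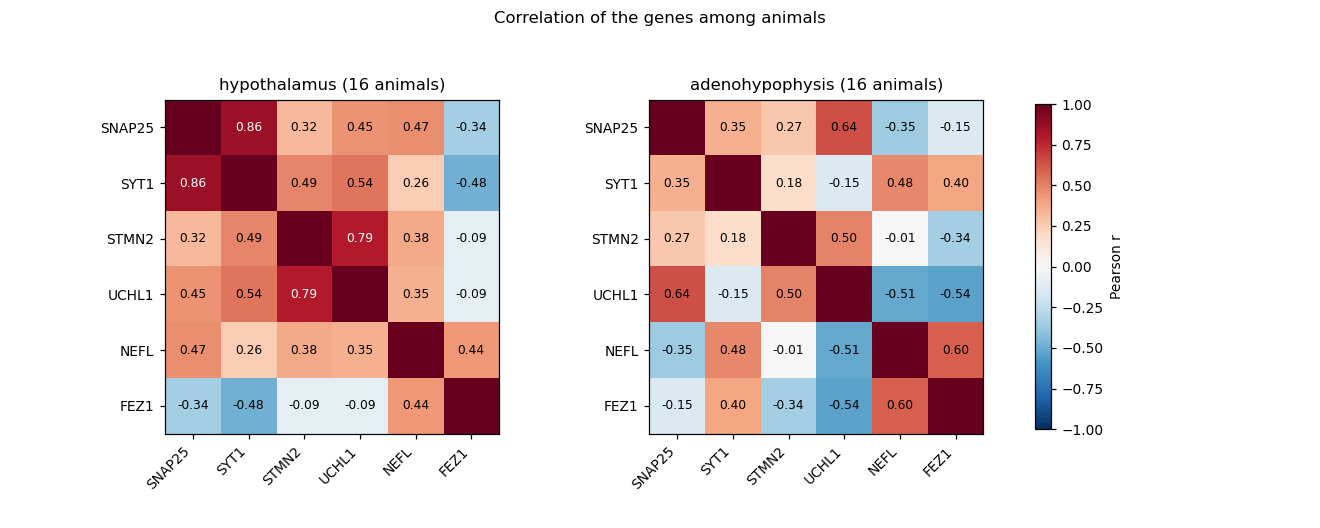
Pearson r between the 6 genes over 16 animals in the hypothalamus (left) and in the adenohypophysis (right), on a colour scale from -1 to 1. In the hypothalamus SNAP25 with SYT1 (0.86) and STMN2 with UCHL1 (0.79) stand out and FEZ1 is near or below 0 with all but NEFL, while in the adenohypophysis NEFL and FEZ1 go with each other and against UCHL1.

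The same animals set these extremes. LWF06 had the highest hypothalamic SNAP25 (13.19), SYT1 (11.83) and STMN2 (13.84) and, level with LWM02, the highest UCHL1 (13.30), and in its array AVP (1.84) and OXT (1.57) were at the floor. YLM18 had the highest NEFL (12.87) and FEZ1 (12.07), and also the highest MAG (11.78 against 8.92 to 11.15 in the others). For the 6 genes these are values of the representative probesets. The second probesets of STMN2 and FEZ1 also peaked in LWF06 and YLM18. Those of SYT1 and NEFL peaked in other animals, LWF05 (10.52) and LWM02 (10.68). The part of AVP, OXT and MAG in the covariation was not tested. FEZ1 and SYT1 had r = -0.477 (adjusted permutation p = 0.169, n = 16) as measured and -0.748 after breed and sex were removed (adjusted p = 0.0045 by permutation of the residuals). Over the hypothalamus arrays the genes most like FEZ1 were CD9 (0.936), C2H11orf24 (0.934) and TYRO3 (0.933), and those most like STMN2 were the tubulins TUBB4B (0.938) and TUBA1B (0.916) and then ELAC2 (0.915). SNAP25 was nearest to VSNL1 (0.885), SH3BGR (0.885) and PI4K2A (0.876), and SYT1 to RUSC1 (0.910), ST6GALNAC5 (0.894) and LDHB (0.884). NEFL was nearest to PTPRU (0.831), DES (0.814) and LOC100152722 (0.757), and UCHL1 to COMTD1 (0.799), BCAS4 (0.796) and TFPT (0.789). For each gene these are the highest r among 6759 genes over 16 arrays, so high values can arise from the search itself. No chance level was computed for them, and no relation is concluded from them.

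In the adenohypophysis no pair passed (0 of 15 by permutation, 5 at an unadjusted p under 0.05). SNAP25 and UCHL1 came nearest with r = 0.643 (permutation p = 0.00735, adjusted 0.101, n = 16) and NEFL and FEZ1 with 0.602 (permutation p = 0.0135, adjusted 0.101, n = 16). Once breed and sex were removed 6 pairs passed, among them NEFL with FEZ1 (r = 0.756, adjusted permutation p = 0.0116) and FEZ1 with UCHL1 (r = -0.623, adjusted permutation p = 0.0301). Permuting residuals takes no account of the terms removed, so these p are too small by some amount.

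No breed difference of the 6 genes passed the test. By limma's moderated F, 0 of 6 were called for breed in hypothalamus, adenohypophysis, thyroid gland, backfat, testis and ovary, where 0.171%, 0.3%, 0.575%, 0.817%, 0% and 0.00417% of all probesets were called. At an unadjusted p under 0.05 there was 1 gene in the adenohypophysis (STMN2), 1 in the ovary (STMN2) and 1 in backfat (NEFL, at the floor there), and none in hypothalamus, thyroid or testis by the representative probesets. In the hypothalamus the second probesets of FEZ1, SYT1 and STMN2 were also below that level, with adjusted p of 0.279, 0.335 and 0.425 by limma. The shares of all probesets at that level were 11.5% for hypothalamus, 16.3% for adenohypophysis, 14.3% for thyroid, 21.1% for backfat, 14% for testis and 7.15% for ovary.

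STMN2 in the adenohypophysis was the nearest to a breed difference. Its representative probeset was at 8.29 to 10.18 in the 4 Duroc pigs (mean 9.37 ± 0.79 SD) and at 8.42 to 8.94 in the 4 Youli pigs (8.68 ± 0.22). It was at 7.20 to 8.13 in the Iberian pigs (7.63 ± 0.38) and at 6.74 to 8.02 in the Large White pigs (7.54 ± 0.60). The 8 Duroc and Youli pigs lay above the 8 others with no overlap, a grouping noticed after the values were seen, yet limma's adjusted p over all probesets was 0.101 (unadjusted 0.00102). Without DUM15 the adjusted p was 0.0185, and without any other animal it did not pass. The second probeset gave 6.64 ± 1.38, 5.87 ± 0.44, 5.42 ± 1.25 and 4.93 ± 1.06 in the same order of breeds, with overlapping ranges. Duroc and Youli pigs also had the lower mean ages (83 and 80 days, against 89 for Iberian and 87 for Large White). Breed and age cannot be told apart here.

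Sex gave no call in hypothalamus, adenohypophysis, thyroid or backfat (0 of 6 in each by limma, against 0.0667%, 0.5%, 0.0792% and 0.05% of all probesets). At an unadjusted p under 0.05 SNAP25 in the adenohypophysis was the one gene of the 6 in these tissues by its representative probeset, where 1.72%, 7.4%, 3.8% and 2.24% of all probesets reached that level. It was at 12.11 to 12.37 in 9 males (median 12.20) and at 11.86 to 12.14 in 7 females (median 12.02), with DUF13 the one female above the lowest male. The male minus female difference was 0.23 ± 0.05 log2 (SE), with an adjusted p of 0.080 by limma, which did not pass. It was in no case called when 1 animal was left out (adjusted p 0.0516 to 0.178). The second SYT1 probeset in the hypothalamus had a male minus female difference of -0.84 ± 0.36 log2 (SE) with an unadjusted p of 0.0359 and an adjusted p of 0.998 by limma, while the representative one gave 0.05 ± 0.16. Among the 52 list genes the granule genes PCSK1 and RAB27B were called in the adenohypophysis, both higher in females, by -1.43 ± 0.27 log2 (adjusted p = 0.0385 by limma) and -1.91 ± 0.37 log2 (adjusted p = 0.0469), and no list gene was called for breed or sex in hypothalamus, thyroid or backfat.

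In the thyroid gland SNAP25 and UCHL1 were the only genes of the 6 above background, and both varied widely. SNAP25 ran from 2.09 (LWF06) and 4.15 (IBM24) to 7.32 (YLM19) and 7.75 (IBM23), with a mean of 5.78 ± 1.37 log2 (SD, n = 16). UCHL1 ran from 4.27 (LWM02) to 8.75 (IBM23), with a mean of 6.50 ± 1.34. Without YLM19 and YLM20, whose arrays held pituitary hormone mRNA, the means were 5.59 ± 1.36 and 6.27 ± 1.26 log2 (SD, n = 14) and 13 and 14 arrays stayed at 4 or more. SYT1, STMN2 and NEFL, strong in the adenohypophysis, were at 1.86, 2.94 and 2.44 in the YLM20 thyroid, the array with the most pituitary mRNA. That STMN2 value was the highest of the 16 thyroids (2.52 to 2.94). The part of pituitary mRNA in the SNAP25 and UCHL1 values was not tested.

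**Figure D4:**
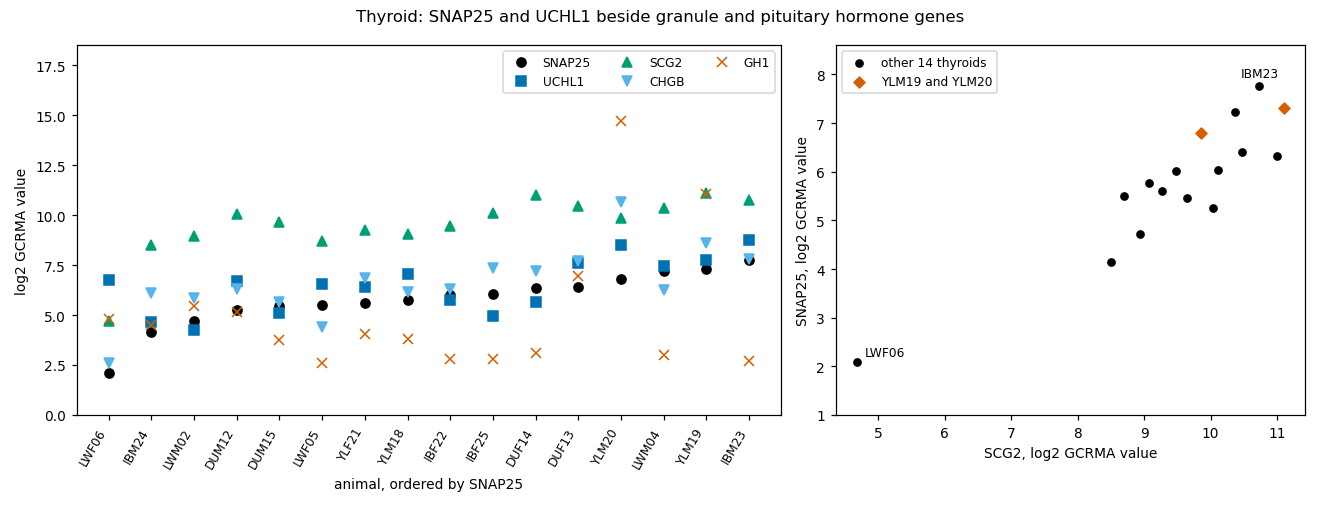
Left, log2 GCRMA values of SNAP25, UCHL1, the granule genes SCG2 and CHGB and the pituitary hormone gene GH1 in each of the 16 thyroid arrays, ordered by SNAP25. Right, SNAP25 against SCG2 in the same arrays, with YLM19 and YLM20 as diamonds. SNAP25 and SCG2 are lowest together in LWF06 (2.09 and 4.68) and high together in IBM23 (7.75 and 10.73), and GH1 stands out in YLM20 (14.70) and YLM19 (11.04).

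To see which genes vary with them, SNAP25 and UCHL1 were set against each other and against the peptide genes CALCB and SST and the granule genes CHGB and SCG2. These 9 relations were chosen after the values were seen. Of the genes listed for thyroid C cells, CALCA was not measured under that symbol. CALCB and SST were also above background in the hypothalamus (means 6.45 and 9.05), so neither marks C cells alone. SNAP25 followed SCG2 with r = 0.904 (permutation p = 5e-05, adjusted 0.00045, n = 16) and rho = 0.835 (p = 0.00019, adjusted 0.00135), and without IBM23 and LWF06 r was 0.783 (adjusted permutation p = 0.00846). With CHGB r was 0.761 (permutation p = 0.00145, adjusted 0.00653, n = 16) and rho 0.80 (p = 0.0003, adjusted 0.00135), but 0.585 without those 2 animals (adjusted permutation p = 0.0823). Without YLM19 and YLM20 both relations passed (adjusted permutation p = 0.00063 and 0.00869, n = 14). With CALCB r was 0.309 and with SST 0.221 (adjusted permutation p = 0.442 and 0.574, n = 16), which did not pass. UCHL1 passed with none of these 4 genes, its r ranging from -0.156 to 0.425 (adjusted permutation p 0.224 to 0.902, n = 16).

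In the thyroid of LWF06 both genes parted. It had the lowest SNAP25, CHGB (2.59) and SCG2 (4.68) and PCSK2 near the floor (2.89), while its UCHL1 (6.77) lay above the median of 6.62 and its TG was 14.58. Between SNAP25 and UCHL1 r was 0.513 (permutation p = 0.0384, adjusted 0.115, n = 16) and rho 0.665 (p = 0.00594, adjusted 0.0178), and r was 0.738 without IBM23 and LWF06 (adjusted permutation p = 0.0114). Without YLM19 and YLM20 r was 0.427 and rho 0.516, with an adjusted permutation p of 0.283 for r (n = 14), so that this relation did not hold throughout. PTH, the parathyroid hormone gene, was at 2.31 to 2.50 in all 16 thyroids.

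In the gonads the sexes have different organs, and 28.3% of all probesets were called between testis and ovary (15% higher in testes and 13.2% higher in ovaries), with 37.7% at an unadjusted p under 0.05. Of the 6 genes 3 were called, all higher in ovaries. UCHL1 was at 9.99 and 10.71 in the Duroc ovaries, 10.13 and 10.59 in the Large White, 10.40 and 8.09 in the Iberian (IBF25 being the low one) and 9.59 in the Youli. In the 9 testes it ran from 7.28 (IBM23) through 8.57 to 9.77 (YLM20), so that 5 of 7 ovaries lay above every testis and the ranges overlapped through IBF25 and YLF21. The male minus female difference was -1.39 ± 0.38 log2 (SE, 9 testes, 7 ovaries), with an adjusted p of 0.0157 by limma. It passed whichever animal was left out (-1.60 to -1.15 log2, adjusted p 0.00512 to 0.0357). FEZ1 differed by -0.26 ± 0.09 log2 (adjusted p = 0.0388 by limma), but all its gonad values lay at 2.02 to 2.67, at the floor, and centring each array on its median brought the adjusted p to 0.198.

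STMN2 was above the floor in some ovaries and in no testis. Its representative probeset read 6.94 (DUF13), 7.99 (DUF14), 6.17 (IBF25), 3.69 (IBF22), 3.58 (LWF06), 2.87 (LWF05) and 2.58 (YLF21) in ovaries and 2.57 to 2.82 in the 9 testes. The 2 Duroc ovaries were thus the highest and 1 of 2 Iberian ovaries came next. The testis minus ovary difference was -1.996 ± 0.62 log2 (SE), with an adjusted p of 0.0294 by limma, and it no longer passed without any 1 of DUF13, DUF14, DUM12, DUM15, IBF25 or IBM24 (adjusted p 0.0545 to 0.0642). The second probeset read 4.96 and 4.83 in the Duroc ovaries and 2.46 to 2.54 in the other 5, so it showed the Duroc ovaries and not that of IBF25. Its testis minus ovary difference was -0.68 ± 0.32 log2 (SE), which did not pass (adjusted p = 0.137 by limma).

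**Figure D5:**
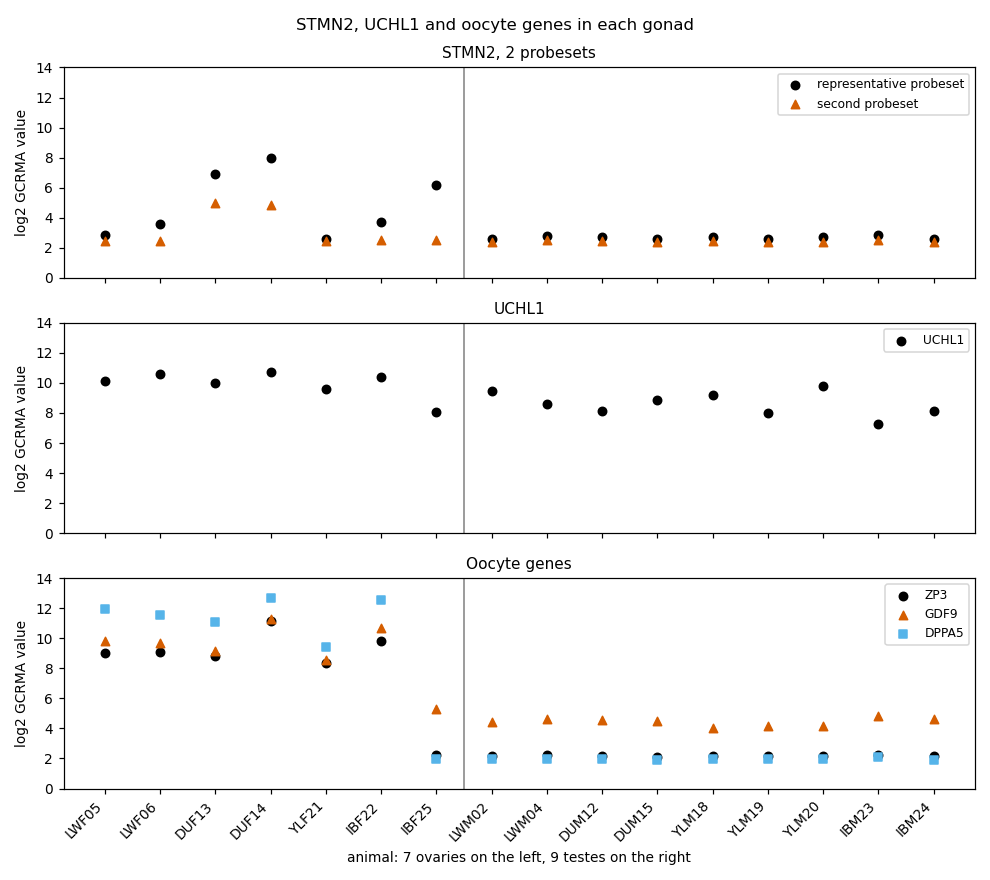
Log2 GCRMA values in each of 7 ovaries and 9 testes, for both probesets of STMN2 (top), UCHL1 (middle) and 3 oocyte genes (bottom). STMN2 rises in DUF13, DUF14 and, in 1 probeset, IBF25, and IBF25 is the ovary with the lowest UCHL1 (8.09) and with ZP3 and DPPA5 at the floor.

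A breed by sex term in the gonads was called for 0 of the 6 representative probesets (1 at an unadjusted p under 0.05, STMN2), with 0.204% of all probesets called and 9.1% at an unadjusted p under 0.05. STMN2 had an adjusted p of 0.208 by limma in the representative probeset and 4.45e-05 in the second one. That interaction was known from earlier results on these arrays and is given as a description. In the second probeset it rests on the Duroc ovaries, and the spread it is tested against comes mostly from arrays at the floor. Among the 7 ovaries the second probeset had an unadjusted p for breed of 1.74e-05 by limma and an adjusted p of 0.139, which did not pass. Whether it passed depended on the ovary left out, but such fits leave a breed with a single ovary or none.

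The markers beside these ovarian values were not uniform. In IBF25, where UCHL1 was lowest, ZP3, ZP4, DPPA5 and GDF9 were each the lowest of the 7 ovaries, GDF9 at 5.32 against 8.56 to 11.28 in the other 6. By its representative probeset STMN2 in that ovary was nevertheless the third highest, so that by this probeset both genes went opposite ways there. The second STMN2 probeset did not show this, since it was at the floor in both Iberian ovaries (2.50 to 2.54). The part of the oocyte genes in the UCHL1 or STMN2 values was not tested. Among the list genes 20 of 52 were called between testis and ovary, beside 28.3% of all probesets. KIF3A (-1.55 ± 0.18 log2), DCLK1 (-1.08 ± 0.21), PCSK1N (-2.20 ± 0.15), SCG5 (-3.29 ± 0.50), CPD (-1.29 ± 0.17), SNAP91 (-1.54 ± 0.45) and THY1 (-3.94 ± 0.27) were higher in ovaries. SPTAN1 (0.54 ± 0.11), DNAJC5 (0.90 ± 0.19), HPCAL1 (1.72 ± 0.25) and RTN3 (0.80 ± 0.15) were higher in testes. ANK3, an ankyrin of axon initial segments, was the one list gene called for the breed by sex term (adjusted p = 0.0263 by limma).

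In backfat 5 of 16 arrays had UCHL1 at 4 or more, namely YLM19 (7.09), IBF22 (6.60), IBF25 (5.40), IBM23 (4.43) and DUF13 (4.34). The lowest was LWM02 at 1.92. CKM, the muscle creatine kinase, chosen for mention after its values were seen, was at 14.57 in the YLM19 backfat and at 7.05, 2.39, 2.25 and 3.82 in the other 4 in that order, and its part in the UCHL1 values was not tested. SNAP25, SYT1, STMN2, NEFL and FEZ1 were at 2.99 or lower in every backfat array by their representative probesets.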

How the data were processed

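The authors hybridised RNA of each sample to an Affymetrix Porcine GeneChip, scanned it with GCOS (per the labels, with no version) and normalized all 80 arrays together with GCRMA. The deposited values are log2 intensities and were used as they stand. GCRMA sets probesets without signal to a common floor, so differences against a floor value are understated. Of 24123 probesets 124 controls were left out. Symbols came from the annotation of the platform, where 10069 probesets had 1 symbol, 198 several and 13732 none. The probeset with the highest mean stood for a gene.

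The members and gene lists were chosen with earlier results of these data known. Tests used limma 3.58.1 in R 4.3.3 (lmFit, eBayes, Benjamini-Hochberg over all 23999 probesets at 0.05): breed with sex as a covariate, sex with breed as a covariate, and their interaction in gonads. The hypothalamus minus adenohypophysis contrast came from 1 fit to all 80 arrays. Correlations over 16 animals used 100000 permutations, two-sided, with SciPy 1.17.1. Scripts were tested on simulated data. Arrays of 1 animal share its number in the title, and their deviations correlated with a mean r of 0.324 between hypothalamus and adenohypophysis (lowest 0.201) against -0.019 between different animals, so that the animal served as a replicate block in an alternative.

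Named beside the members were, of each neuronal list, the up to 3 called genes with the largest difference in each direction and the up to 3 with the lowest adjusted p for breed or sex in a tissue, the 3 genes most like each member by r, and cell type markers with a high level in their tissue. Alternatives were other background levels, the mean of a gene's probesets, centring on the array median, a filter at a mean of 4, an intensity trend, the label fields of the thyroid, leaving out each animal, and, chosen after seeing the data, leaving out YLM19 and YLM20. Sequences are not printed. The number of arrays limits the precision.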

Additional observations from a re-analysis of the deposited data

Results flagged for a closer look

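In 86 groups of arrays above background (4 animals of a breed in a tissue, 9 testes or 7 ovaries), 2 held a sample far from the others by Dixon's criterion, which chance alone flags in about 1 of 20 groups. The second NEFL probeset in the hypothalamus of YLM18 read 10.12 against 8.68 to 8.80 in the other Youli pigs. UCHL1 in the ovary of IBF25 read 8.09 against 9.59 to 10.71 in the other 6 ovaries.

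The testis minus ovary difference of STMN2 differed from the male minus female difference of these animals averaged over hypothalamus, adenohypophysis, thyroid and backfat, by -2.10 ± 0.60 log2 (SE, n = 16) with an adjusted p of 0.0204 by limma in the representative probeset. The second probeset gave -0.70 ± 0.32 log2 with an adjusted p of 0.138, which did not pass. For UCHL1 that comparison gave -1.32 ± 0.52 log2 with an adjusted p of 0.0870 by limma, which did not pass. The share of all probesets called in that comparison was not computed. Between testis and ovary it was 28.3%, so a call for STMN2 is not particular to this gene. The breed by sex interaction of STMN2 in the gonads had an adjusted p of 4.45e-05 by limma in the second probeset and of 0.208 (unadjusted 0.00276) in the representative one, and the difference between the probesets was not tested. Both were highest in the Duroc ovaries. In the second probeset 2 of 2 Duroc ovaries lay near 5 and the remaining gonads at the floor. Its small p thus rests on 2 ovaries and on a spread taken mostly from arrays at the floor. The interaction had been known from earlier results on these arrays.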

How the results depend on the processing

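With the animal as a replicate block, the 33 list genes higher in the hypothalamus stayed 33 in number and those higher in the adenohypophysis were 11 in place of 10 (consensus correlation 0.0758). Over all probesets the calls went from 5584 to 5663 and from 7132 to 7252. The paired differences of the 6 genes (0.51 for SNAP25, 3.55 for SYT1, 5.07 for STMN2, 3.20 for NEFL, 7.14 for FEZ1 and 0.67 for UCHL1) equal the unpaired ones by construction in this balanced design and were not tested. Of the genes above background in the hypothalamus only, there was 1 (FEZ1) with a background level of 5 and 1 with the mean of all probesets, against 0 in the main setting. Members above background in a gonad were 2 with a background level of 3 and 2 with a step of 1 above the lowest tissue median, STMN2 joining UCHL1, against 1. Leaving out each animal gave 1 to 2 such members. Genes called for breed ranged from 0 to 1 in the adenohypophysis when 1 animal was left out (STMN2 without DUM15), and with an intensity trend 1 gene (SYT1, at the floor) was called in backfat. Genes called for sex in gonads were 1 with the filter at a mean of 4 and 1 to 3 when 1 animal was left out (1 without DUF14, IBF25 or IBM24). The breed by sex term was called for 0 to 1 (STMN2, without IBF22 or IBF25). Correlated pairs in the hypothalamus were 1 without the 2 animals farthest from the median, and in the adenohypophysis 6 on residuals from breed and sex. The causes were not tested. Without YLM19 and YLM20 the counts of genes and pairs stayed on their side, except that FEZ1 between testis and ovary no longer passed (-0.22 log2, adjusted p = 0.0864 by limma). No alternative turned the direction of a hypothalamus minus adenohypophysis difference of the 6 genes or of a sex difference called in gonads. The correlations that passed also kept their sign. Some that did not pass changed it. SNAP25 with SST in the thyroid went from r = 0.221 to -0.139 without IBM23 and LWF06. SNAP25 with UCHL1 in the hypothalamus went from 0.452 to -0.178 without LWF06 and LWM02.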
